A study of Mus musculus with 2 samples.

Results

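The colony-stimulating factors examined here were Csf1, Csf2, Csf3 and Il34, 4 of the 27998 genes in the count tables, taken by gene symbol. The question was which cells of lung organoids made each factor, and how its level differed between organoids given IL-1β and organoids given PBS. Csf1 encodes M-CSF and Il34 encodes interleukin-34; both proteins bind the receptor CSF1R and keep monocytes and macrophages alive. Csf2 encodes GM-CSF, which in the lung is known as an epithelial product that alveolar macrophages need and that acts through CSF2RA and CSF2RB. Csf3 encodes G-CSF, which drives neutrophil production through CSF3R. Fibroblasts and epithelial cells are known to make such factors when IL-1β, a cytokine released by activated macrophages, signals through IL1R1 to NF-κB.

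Both libraries came from organoids of C57BL/6 mouse lung cells. Alveolar type 2 (AT2) cells were taken from young adult, tamoxifen-treated Sftpc-CreERT2;R26RTomato mice, in which the Cre recombinase is driven by the surfactant protein C gene and so marks Sftpc-expressing cells, and were grown together with lung stromal cells. Organoids given PBS formed the control library and organoids given IL-1β the second library; the concentration and the day of collection are stated differently in different sources and are not printed here. The stromal cells had been depleted of CD31+, EpCAM+ and CD45+ cells and then cultured. No sort of the dissociated organoids is described, and the libraries hold epithelial and stromal cells.

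There was 1 library per condition, so no difference between PBS and IL-1β has a replicate check and no p-value is given. All intervals are 95% intervals for counting error only. The files held 2101 control and 3066 IL-1β barcodes with a median of 14613 and 11496.5 UMIs (unique transcript molecules), and 11 barcode sequences occurred in both. After the study's cell filter, 1299 epithelial and 782 stromal control cells and 2583 epithelial and 475 stromal IL-1β cells were analysed, in 11 epithelial and 11 stromal clusters. Of the 22 clusters, 18 drew at least 95% of their cells from 1 library, so a cluster and a library can often not be told apart. Of the 19 leukocyte markers listed, 18 were in the files, and their summed level was 13.2 to 58.5 CPM (UMIs per 1000000 UMIs of the cells); leaving out Cd68, no single one passed 7.34 CPM in any kind of cell. Itgax was at 0 in both kinds of control cell, and Adgre1, Marco and the C1q genes were at 0 in both kinds of IL-1β cell. Control stroma had UMIs of 17 of the 18 markers, and 7 of its cells carried at least 3 of them. In IL-1β stroma 2 cells did, and in the epithelium 1 cell of each library. A group of 4 IL-1β cells counted as stromal carried at least 3 of the 6 endothelial markers.

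The factors divided between the kinds of cell (the plot of levels by kind of cell). Csf1 and Csf3 were mainly stromal, and Csf2 and Il34 mainly epithelial, in both libraries. Stromal cells held 92.7% of the control Csf1 UMIs (1324 of 1428) and 62.6% of the IL-1β ones (702 of 1121, exact interval 59.7 to 65.5%). They held 92.9% of the Csf3 UMIs in the control (510 of 549) and 90.4% with IL-1β (2279 of 2522). For Csf2 the stromal share was 0.870% (1 of 115 UMIs) and 2.67% (5 of 187), and for Il34 8.38% (44 of 525) and 5.54% (52 of 938). Stromal cells contributed 40.4% of all control UMIs and 23.3% of all IL-1β UMIs, and all 8 shares of the factors lay outside the range between those values.

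**Figure D1:**
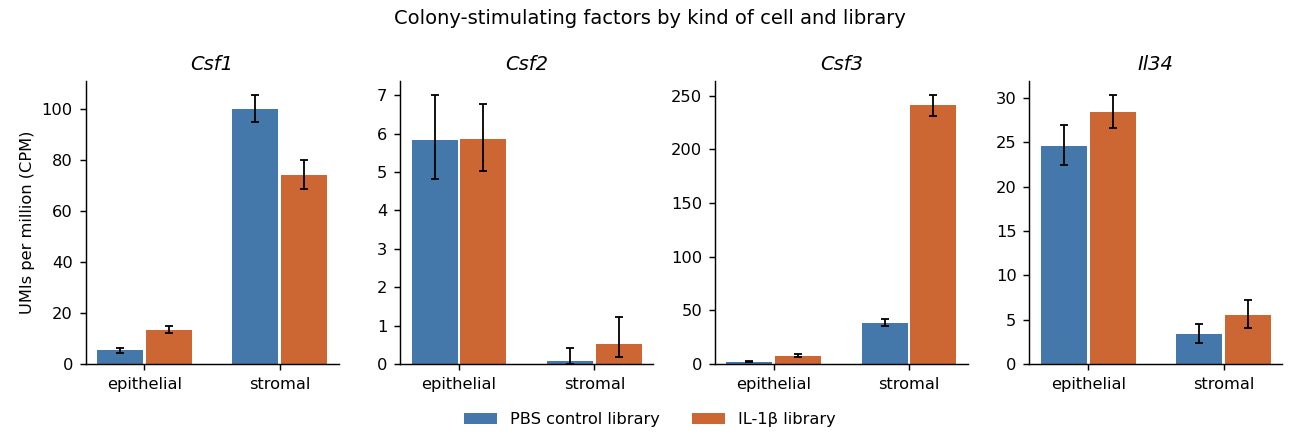
Level of the 4 factors in epithelial and stromal cells, in CPM (linear axis from 0, a separate scale for each gene), in the PBS control library (blue) and the IL-1β library (orange). Bars are the pooled level of 1 library and lines the exact 95% Poisson interval. Csf3 stands at 38.6 and 241 CPM in stromal cells, Csf1 is lower with IL-1β in stromal cells and higher in epithelial cells, and Csf2 and Il34 stand at nearly equal heights in the epithelial cells of both libraries.

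The same division was seen in CPM. Csf1 was 18.8-fold (15.4 to 23.2) higher in stromal than in epithelial cells of the control, and 5.51-fold (4.88 to 6.24) with IL-1β. Csf3 was 19.3-fold higher in the control stroma and 30.9-fold higher with IL-1β. Il34 was 7.40-fold (5.43 to 10.3) higher in the control epithelium than in its stroma and 5.18-fold (3.91 to 6.99) higher with IL-1β. Csf2 had only 1 stromal UMI in the control, where its epithelial level was 77.2 times the stromal one (13.6 to 3076), and 5 with IL-1β, a ratio of 11.1 (4.65 to 34.5). Among all genes with at least 20 UMIs, 23% were at least 2-fold higher in stromal cells and 16.6% at least 2-fold lower in the control, and 15.9% and 23.8% with IL-1β.

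Csf1 lies at chr3:107741048-107760469 on the minus strand of GRCm38. Its level was 100.2 CPM (94.9 to 106) in control stroma and 74.2 CPM (68.8 to 79.9) in IL-1β stroma, against 5.33 CPM and 13.5 CPM in the epithelium. The stromal level was thus lower with IL-1β, by a ratio of 0.741 (0.675 to 0.812), and the epithelial level higher, by 2.53 (2.03 to 3.16). The stromal value is −0.43 on the log2 scale, beside a median of −0.32 over the 12788 stromal genes tested, so Csf1 stood close to the middle of the stromal transcriptome. In the epithelium, 7.99% of genes were at least 2-fold higher with IL-1β and 6.83% at least 2-fold lower, and Csf1 was among the former; in stromal cells 5.69% were higher and 13.1% lower, and Csf1 was in neither set.

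Within the stroma, Csf1 was concentrated in a small group of cells (the plot of levels by cluster). Stromal cluster 6, led by Fmod (fibromodulin), Fam150a and Wisp2 and also by the contractile genes Acta2 and Tagln, held 81 control and 18 IL-1β cells and got no cell type name from its markers. Its Csf1 level was 309.5 CPM (285 to 335) in the control, 4.85-fold (4.34 to 5.41) above the other stromal cells, and 92.6% of its cells had a Csf1 UMI. These 3.89% of the control cells held 42.4% of the control Csf1 UMIs. All other control stromal clusters lay between 37.5 and 105 CPM, with intervals that overlapped from each to the next in the order. Cells of the contractile stromal-like cluster 10 (105 CPM, 28 cells) and of cluster 3 (70.2 CPM) could therefore not be ranked.

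With IL-1β, cluster 6 stood at 402 CPM (351 to 458) in 18 cells, but 1 cell held 65 of its 228 Csf1 UMIs. The ratio to the control cluster was 1.30 (1.11 to 1.51), and 0.993 (0.829 to 1.18) without the cell that held the most Csf1 UMIs in each library. The 18 cells include the 4 with endothelial markers, and without those the ratio was 1.49 (1.27 to 1.74), or 1.13 (0.945 to 1.36) when the cells with the most Csf1 UMIs were left out as well. In the stroma without cluster 6 and the mixed cluster 11 Csf1 was 63.8 CPM in the control and 52.6 CPM with IL-1β, a ratio of 0.824 (0.731 to 0.929), or 0.836 with cluster 11 included. Cluster 6 made up a smaller share of the IL-1β library (0.589% of cells), and the whole-stroma ratio of 0.741 includes that shift. After leaving out cluster 6 and the clusters with mixed markers, the IL-1β clusters were the matrix fibroblast-like cluster 1 at 92.2 CPM, cluster 2 (led by Dcn, Ccl8 and Saa3) at 44.4 CPM and cluster 7 (led by Mmp10 and Mmp12) at 39.8 CPM. The first was separated from the other two, which overlapped each other.

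**Figure D2:**
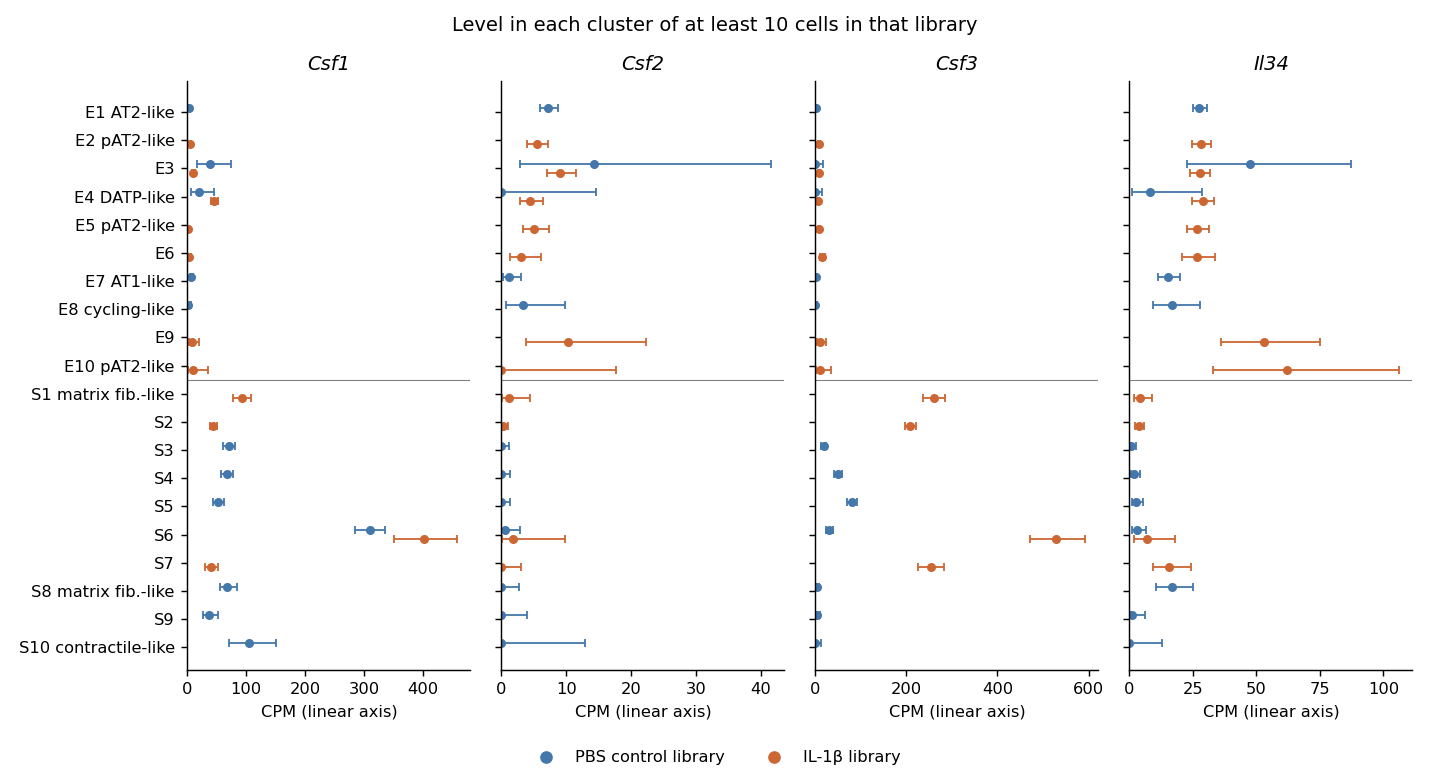
Level of each factor (CPM, linear axes that differ between genes) in each epithelial (E) and stromal (S) cluster with at least 10 cells in that library, without the 2 clusters that carried markers of both kinds. Blue points are the control library, orange points the IL-1β library, and lines exact 95% Poisson intervals. Csf1 peaks in S6 and, among epithelial clusters of the IL-1β library, in E4; Csf3 is high in every IL-1β stromal cluster; Csf2 and Il34 are spread over the epithelial clusters.

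The epithelial Csf1 of the IL-1β library came largely from epithelial cluster 4. This cluster was DATP-like by its markers, that is, like damage-associated transient progenitors (Cldn4 led it), but it also held the AT1 genes Ager (6440 CPM) and Rtkn2 (189 CPM). In its 476 IL-1β cells Csf1 stood at 45.6 CPM (40.4 to 51.2), and in the other 2107 epithelial cells of that library at 5.57 CPM, a ratio of 8.19 (6.66 to 10.1). A Csf1 UMI was found in 31.5% of its cells, 280 UMIs in all with at most 9 in a cell, and in 12.0% after each cell was thinned to 4000 UMIs. No cell was shallower than 4605 UMIs. The level was about that of IL-1β stromal clusters 2 and 7, with overlapping intervals. The 16 control cells of cluster 4 held 5 Csf1 UMIs, at 19.7 CPM (6.41 to 46.1), an interval that overlaps that of its IL-1β cells. With the highest doublet scores removed, the Csf1-rich epithelial cluster held 21 control cells at 22.9 CPM (7 UMIs) and 328 IL-1β cells at 53.9 CPM. Col1a1, Col1a2 and Col3a1 in cluster 4 were together at 1.94% of their stromal level, and the part of free RNA in its Csf1 was not tested.

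Whether these Csf1-rich cells are called DATP-like or AT1-like depended on the clustering. In 4 of 9 clusterings the epithelial IL-1β cluster with the most Csf1 was AT1-like, and in 5 DATP-like. At resolution 2.0 an AT1-like cluster of 289 IL-1β cells separated (Ager 8015 CPM) and held 54.0 CPM of Csf1, while the cells called DATP-like at that resolution held 17.3 CPM. They formed 3 clusters of 172, 279 and 117 IL-1β cells with 36.5, 10.1 and 4.82 CPM of Csf1, and the last had the most Cldn4 of the 3 (521 CPM). At that resolution AT1-like cells of both libraries could be compared, and Csf1 was 53.8 CPM in 292 IL-1β cells and 8.04 CPM in 282 control cells, a ratio of 6.69 (4.62 to 9.96). In the other 3 clusterings with AT1-like cells of both libraries the ratio was 4.26 (3.08 to 6.01, Louvain), 5.94 (separate clustering) and 5.91 (without the highest doublet scores). The AT1-like cells of the 2 libraries were not alike in other genes. At resolution 2.0 Ager was 8028 CPM with IL-1β and 11244 CPM in the control, a ratio of 0.714. Cldn4 was 337 CPM in the IL-1β cluster, against 29.9 and 18.3 CPM in control clusters. In the other 3 clusterings the Ager ratio was 0.647, 0.414 and 0.550. In the main clustering the control AT1-like cluster stood at 6.87 CPM (4.35 to 10.3).

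AT2 cells carried little Csf1. The AT2-like control cluster stood at 3.26 CPM (2.39 to 4.33) and the pAT2-like (primed AT2) IL-1β clusters 2 and 5 at 4.32 and 1.98 CPM. Over all cells named AT2-like, pAT2-like or cycling-like the ratio of IL-1β to control was 1.12 (0.740 to 1.70). That ratio leaves out the unnamed IL-1β clusters 3, 6 and 9, which stood at 10.0, 3.49 and 8.55 CPM. The level also moved with the clustering, from 3.50 to 5.81 CPM with IL-1β and from 3.13 to 4.02 CPM in the control. In AT2-like and pAT2-like cells Csf1 was at 3.24% of its stromal level in the control and 4.72% with IL-1β. The fibroblast genes Col1a1, Col1a2, Col3a1 and Dcn were there at 2.16 to 2.77% and 1.72 to 2.72% of theirs, and Sparc at 8.81% and 3.61%. The part of free RNA in AT2 Csf1 was not tested. Cluster 3, IL-1β cells led by Cxcl5 and Cd14 and left without a name, stood higher at 10.0 CPM (7.82 to 12.6).

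For Csf1 the table of RefSeq promoters (GRCm38.p6) holds the 250 bases before the start, chr3:107760470-107760719 on the minus strand. It is shown because it is the window of a member that begins at the annotated start of the gene. Capitals mark a match to the NF-κB site, which lies 154 bases before the start on the other strand.
Csf1 promoter: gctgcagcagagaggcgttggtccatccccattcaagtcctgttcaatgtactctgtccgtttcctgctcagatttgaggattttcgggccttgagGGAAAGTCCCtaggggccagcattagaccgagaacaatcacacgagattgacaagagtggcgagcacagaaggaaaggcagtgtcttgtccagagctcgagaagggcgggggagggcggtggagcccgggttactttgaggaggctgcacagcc
The NF-κB site occurs on either strand of 7.25% of the 32851 promoter windows in the table. Csf1 also holds 3 GGAA words (the core of ETS sites, in 93.4% of windows), 1 of them inside the NF-κB match, and neither TGANTCA (AP-1, 6.75% of windows) nor TTNNGNAAT (C/EBP, 10.2%). The window listed for Csf2 lies before a RefSeq start that is 232 bases upstream of the GENCODE start. It therefore leaves out the bases just before the GENCODE start, which were not searched. The window holds 5 GGAA words and none of the other 3 motifs. A match is a description of letters and no binding was measured.

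Csf3, at chr11:98701263-98703629 on the plus strand, had the largest IL-1β ratio of the 3 factors with at least 20 stromal UMIs. Csf2 had 5 and 1 stromal UMIs, a ratio of 6.98 (0.782 to 330). Csf3 stood at 38.6 CPM (35.3 to 42.1) in control stroma and 241 CPM (231 to 251) in IL-1β stroma, a ratio of 6.24 (5.67 to 6.88). A Csf3 UMI was found in 16.8% of control and 59.8% of IL-1β stromal cells at median depths of 15563 and 14849 UMIs, and after thinning in 8.57% (6.70 to 10.8) and 37.3% (32.9 to 41.8). In epithelial cells, which hold little Csf3, the thinned shares were 0.616% and 2.67%.

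Csf3 was uneven among cells. In the control library 10 cells held 37.3% of the Csf3 UMIs, the highest 36 in 1 cell, and in the IL-1β library 10 cells held 26.1%, the highest 112. That highest cell was among the 4 with endothelial markers, which together held 182 Csf3 UMIs. Without these cells the stromal ratio was 5.80 (5.26 to 6.40), and without the 1% of stromal cells with the most Csf3 it was 8.02.

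Control clusters of the stroma ranged from 80.7 CPM in cluster 5 (led by Dio2, Nr4a1 and Dlk1) and 49.7 CPM in cluster 4 to 3.78 CPM in the matrix fibroblast-like cluster 8 and 0 in cluster 10. Clusters 5, 4 and 6 were separated from each other by their counting intervals, but 10 cells held 65.9%, 60.6% and 93.1% of their Csf3 UMIs. After thinning, their shares of cells with a Csf3 UMI overlapped, at 15.8% (10.7 to 22.1), 13.2% (8.64 to 19.0) and 6.17% (2.03 to 13.8). In the IL-1β library the matrix fibroblast-like cluster 1 (259 CPM), cluster 7 (253 CPM) and cluster 2 (208 CPM) lay close together, and only the last was separated. These 3 clusters were all above the highest control cluster. Cluster 6 stood at 29.6 CPM in the control and 529 CPM with IL-1β, or 245 CPM when the cells with endothelial markers were left out.

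In the epithelium Csf3 stood at 2.00 CPM in the control and 7.81 CPM with IL-1β, a ratio of 3.91 (2.78 to 5.63). Of the 39 control UMIs, 10 were in 1 cell of the mixed cluster 11; the ratio was 5.17 (3.51 to 7.89) without the mixed clusters and 6.40 without the 1% of cells with the most Csf3. These levels were 5.18% and 3.24% of the stromal ones. Col1a1, Col1a2, Col3a1 and Dcn were at 3.20 to 4.81% and 1.69 to 2.43% of their stromal levels in the same cells, and Sparc at 25.1% and 13.4%. Epithelial Csf3 thus stood slightly above the proportion of those 4 transcripts, and the part of free RNA in it was not tested. The highest epithelial cluster with at least 100 cells, IL-1β cluster 6 (led by genes that include Susd2, 14.7 CPM), had 26 of its 38 Csf3 UMIs in 1 cell.

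Csf2, at chr11:54247271-54249667 on the minus strand, was the scarcest factor, with 115 UMIs in 102 control cells and 187 UMIs in 169 IL-1β cells. Its epithelial level was 5.84 CPM (4.82 to 7.02) in the control and 5.85 CPM (5.03 to 6.76) with IL-1β, a ratio of 1.00 (0.788 to 1.28). A change of 2-fold in either direction is outside that interval. Csf2 UMIs were in 7.78% and 6.35% of epithelial cells, and in 2.62% (1.82 to 3.64) and 2.36% (1.81 to 3.02) after thinning. In stromal cells a Csf2 UMI was found in 1 of 782 control and 5 of 475 IL-1β cells. After thinning it was found in 0 of 782, a count that allows up to 0.384% of such cells to hold a UMI at that depth (3 cells), and in 4 of 475. Of the 5 IL-1β UMIs, 1 lay in the mixed cluster 11 and 1 in a cell with endothelial markers. Stromal Csf2 was at 1.30% (control) and 9.04% (IL-1β) of its epithelial level. Sftpc, Sftpb, Sftpa1 and Sftpd were at 2.82 to 3.81% and 5.55 to 7.35% of theirs. The part of free RNA in stromal Csf2 was not tested.

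Among control epithelial cells Csf2 was mainly in AT2-like cells. The AT2-like control cluster held 104 of the 115 control UMIs, at 7.21 CPM (5.89 to 8.74), and the AT1-like control cluster held 4, at 1.19 CPM (0.325 to 3.06). AT1-like cells were thus at 0.172 (0.0461 to 0.453) of the other control epithelial cells. With IL-1β, the small Ccl20 cluster 9 stood at 10.3 CPM (6 UMIs), the Cxcl5 cluster 3 stood at 9.03 CPM (6.97 to 11.5), the pAT2-like clusters 2 and 5 at 5.46 and 5.04 CPM and cluster 4 at 4.39 CPM, with intervals that overlapped from each to the next. At resolution 2.0 the AT1-like IL-1β cluster again had little, 2.03 CPM, and the DATP-like cells 8.58 CPM. Over the cells named AT2-like, pAT2-like or cycling-like, 1219 with IL-1β and 1023 in the control, the ratio was 0.748 (0.550 to 1.01). That group leaves out the unnamed IL-1β clusters, namely 611 cells of cluster 3, 241 of cluster 6 (3.10 CPM) and 35 of cluster 9.

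Il34, at chr8:110741829-110805924 on the minus strand, was spread over the epithelium. Its epithelial level was 24.7 CPM (22.5 to 27.0) in the control and 28.5 CPM (26.6 to 30.4) with IL-1β, a ratio of 1.15 (1.03 to 1.29), and no cell of either library held more than 6 UMIs. A UMI was found in 27.3% and 27.2% of epithelial cells, and in 9.47% and 10.3% after thinning. The thinned stromal shares were 1.15% and 1.89%.

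AT2-like control cells had 27.5 CPM of Il34 (24.9 to 30.4), and the IL-1β clusters 2 to 6 lay between 26.6 and 28.8 CPM with overlapping intervals. Control AT1-like cells were lower, at 15.2 CPM, a ratio of 0.564 (0.413 to 0.755) to the other control epithelial cells. At resolution 2.0 the IL-1β AT1-like cells had 28.1 CPM, 1.96-fold (1.42 to 2.73) the 14.4 CPM of the control ones. Those AT1-like cells also differed in Ager and Cldn4. The small IL-1β clusters 9 (35 cells, led by Ccl20 and Spib) and 10 (33 cells) were the highest, at 53.0 and 62.1 CPM, and could not be ranked.

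Some Il34 was also stromal. It stood at 3.33 CPM in control stroma and 5.50 CPM with IL-1β, a ratio of 1.65 (1.08 to 2.53). These were 13.5% and 19.3% of the epithelial levels, while Sftpc, Sftpb, Sftpa1 and Sftpd in stromal cells were at 2.82 to 3.81% and 5.55 to 7.35% of theirs. The control matrix fibroblast-like cluster 8 had 16.6 CPM (10.4 to 25.2) and the IL-1β cluster 7 15.4 CPM (9.29 to 24.1), against 0 to 4.30 CPM in the other clusters of at least 20 cells. Csf2 and Il34 each overlap annotated genes on the opposite strand, Gm12223 for Csf2 and Gm15894 and Gm15895 for Il34. Gm12223 had 0 control and 1 IL-1β UMIs, Gm15894 had 11 and 1, and Gm15895 had 57 and 68, and whether the counting used strand is not given in the sources used here.

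**Figure D3:**
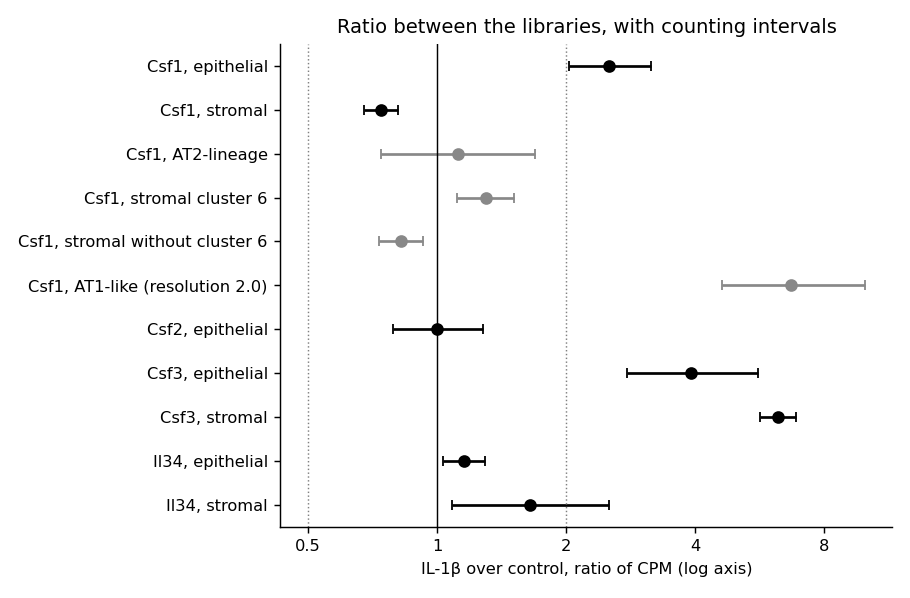
Ratio of the level in the IL-1β library to that in the control library (log axis) with its exact 95% counting interval, for each factor with at least 20 UMIs in epithelial or stromal cells (black) and for Csf1 in smaller groups of cells (grey). The solid line marks equal levels and the dotted lines 2-fold differences. Csf3 lies to the right of 2 in both kinds of cell, Csf2 and Il34 lie near 1 in the epithelium, and Csf1 lies on opposite sides of 1 in epithelial and stromal cells.

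The factors also differ in the AU-rich elements of their mRNAs, which bind decay proteins of the ZFP36 family and keep many cytokine mRNAs short-lived. In the longest 3' untranslated region of each gene (GENCODE M21), the pentamer ATTTA occurred 9 times in 317 bases of Csf2, 6 times in 669 bases of Csf3, 4 times in 2111 bases of Csf1 and once in 605 bases of Il34. A density as high as that of Csf2 was reached by 0.0533% of 20657 genes and one as high as that of Csf3 by 1.51%, but that of Csf1 by 38.1% and that of Il34 by 42.6%. The nonamer TTATTTATT occurred 4 times in Csf2, which 7.79% of genes hold at least once, and not in the other 3. The richest stretch of 30 bases of each, all in the last exon, is shown with the pentamers in capitals. The stretches lie at chr11:54247329-54247358 (Csf2, minus strand, exon 4), chr11:98702985-98703014 (Csf3, plus strand, exon 5), chr3:107741109-107741138 (Csf1, minus strand, exon 9) and chr8:110741842-110741871 (Il34, minus strand, exon 8).
Csf2: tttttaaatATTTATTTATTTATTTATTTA
Csf3: atagtttATTTAtctctATTTAatATTTAt
Csf1: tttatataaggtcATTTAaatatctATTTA
Il34: ttcctttttctattaaatggccATTTAttt
Overlapping pentamers share letters in the Csf2 stretch, which holds 5 of them in a row. Transcripts of all 8 proteins listed under AU-rich mRNA decay and stability were measured, and mRNA decay itself was not. In stromal cells Zfp36 (160 to 47.9 CPM, ratio 0.299) and Zfp36l1 (556 to 247 CPM, ratio 0.444) were at least 2-fold lower with IL-1β, as were 13.1% of all stromal genes, and none was higher. In epithelial cells Zc3h12a, which encodes the RNase Regnase-1, went from 6.10 to 46.2 CPM, a ratio of 7.58 (6.29 to 9.22), where 7.99% of all epithelial genes were at least 2-fold higher, and none was lower.

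Receptor chains were measured in the same clusters (the plot of receptor chains). In the control, stromal and epithelial levels differed by less than counting error for Csf1r (ratio 0.892, 0.638 to 1.24) and Csf2ra (0.891, 0.693 to 1.14). Csf1r was found in control AT1-like cells at 22.1 CPM, in 21.8% of 234 cells, against 1.53 CPM in AT2-like cells. The leukocyte markers other than Cd68 together reached 6.57 CPM in that AT1-like cluster and 5.68 CPM in the AT2-like one. With IL-1β, Csf1r stood at 1.35 CPM in the epithelium, a ratio of 0.261 (0.177 to 0.377), and at resolution 2.0 it was at 9.46 CPM in IL-1β and 19.3 CPM in control AT1-like cells, a ratio of 0.491 (0.325 to 0.732). That ratio was 0.442, 0.300 and 0.356 with Louvain, separate clustering and the highest doublet scores removed. The AT1-like cells compared at resolution 2.0 also differed in Ager and Cldn4. In stromal cells Csf1r went from 4.62 to 0.529 CPM on 61 and 5 UMIs. The control UMIs lay in 40 of 782 cells, with up to 11 in 1 cell. At least 3 leukocyte markers were found in 7 control and 2 IL-1β stromal cells. The part of those cells in stromal Csf1r was not tested.

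Csf2ra, the ligand-binding chain for GM-CSF, was spread over all clusters with at least 20 cells except cluster 10 of the stroma, where it was at 0. It stood at 8.92 and 10.8 CPM in control and IL-1β epithelium and at 7.95 and 5.08 CPM in stroma. Csf2rb, the signalling chain, was 2.26-fold (1.75 to 2.94) higher in IL-1β epithelium, where it stood at 9.03 CPM. In stroma Csf2rb went from 0.530 to 4.97 CPM on 7 and 47 UMIs, a ratio of 9.38 (4.21 to 24.6). It was highest in the Ccl20 cluster 9 (76.9 CPM, 51.4% of 35 cells), in the pAT2-like cluster 2 (15.5 CPM) and in stromal cluster 7 (31.7 CPM), and it stood at 0.299 CPM in control AT1-like cells. Its close copy Csf2rb2 was at 0 in both libraries. How reads shared by the pair were counted is not given in the sources used here, so the values are uncertain. Csf3r had 9 UMIs in all cells. Of the other IL-34 binding proteins listed, Ptprz1 was too low to compare. Sdc1, a heparan sulfate proteoglycan, was 4.19-fold higher in IL-1β stroma (69.0 to 289 CPM) and 1.37-fold higher in IL-1β epithelium.

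**Figure D4:**
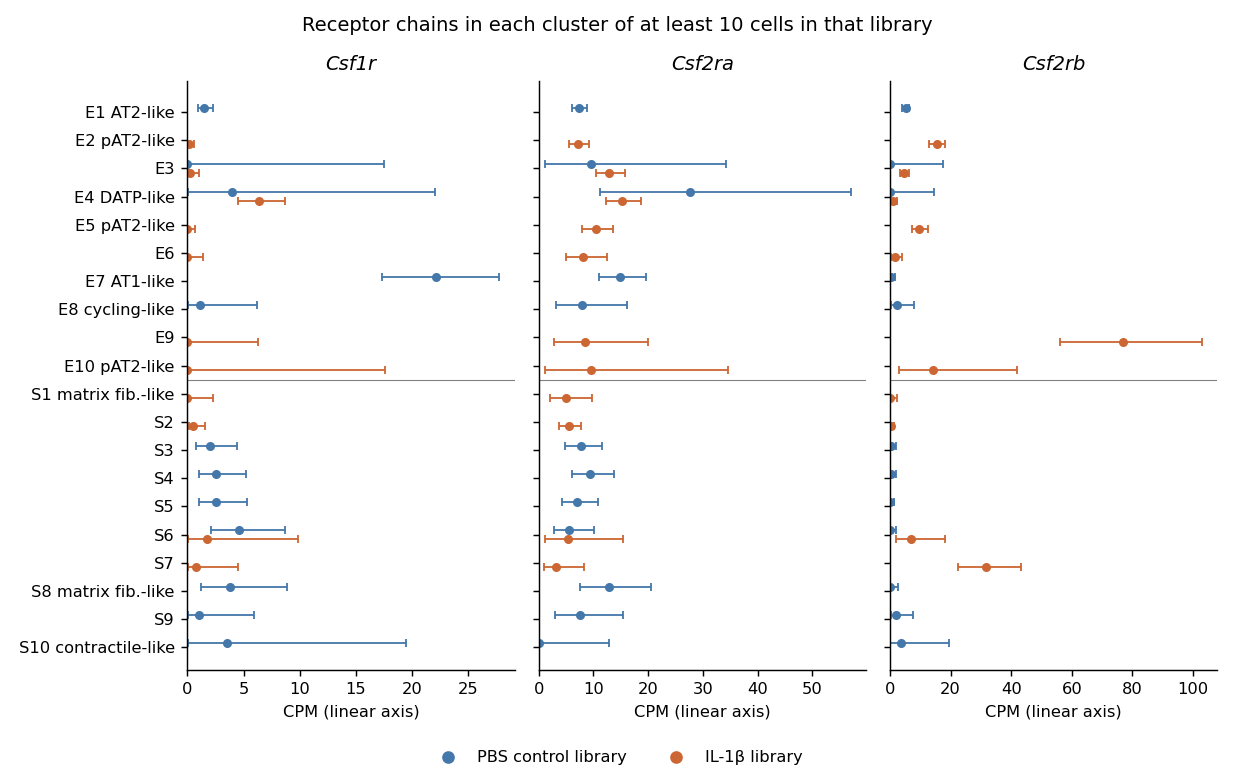
Level of the receptor chains Csf1r, Csf2ra and Csf2rb (CPM, linear axes that differ between genes) in each epithelial (E) and stromal (S) cluster with at least 10 cells in that library, without the clusters that carried markers of both kinds. Blue is the control library, orange the IL-1β library, and lines are exact 95% Poisson intervals. Csf1r stands out in the control AT1-like cluster E7, and Csf2rb in E9 and S7 of the IL-1β library.

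Of 16 other growth factors and cytokines of blood cells, 9 had enough UMIs in stromal cells and 5 were at least 2-fold higher with IL-1β, where 5.69% of all stromal genes were. These were Il11 (3.94 to 110 CPM), Il6 (62.5 to 253 CPM), Lif (15.7 to 62.9 CPM), Tslp (6.36 to 16.3 CPM) and Flt3l (1.36 to 3.38 CPM). For Tslp, 1 IL-1β cell held 46 of 154 UMIs, and without the cell with the most in each library, an alternative chosen after seeing the data, the ratio was 1.96 (1.45 to 2.66). Kitl, the ligand of the receptor KIT, was lower, at 30.2 and 5.08 CPM, where 13.1% of all stromal genes were at least 2-fold lower. The median over the 9 was 1.31 on the log2 scale, beside −0.32 for all stromal genes. In the epithelium Lif was higher (2.10 to 5.14 CPM) and Kitl lower (1.18 to 0.193 CPM), 1 of 9 genes each way. There 7.99% of all genes were at least 2-fold higher and 6.83% lower. The median over the 9 was 0.48, beside 0.04 for all genes. Epithelial Kitl rested on 23 control and 6 IL-1β UMIs, and in the control it was 25.6-fold higher in stroma. The part of free RNA in epithelial Kitl was not tested. Il3, Il4 and Epo had no UMIs.

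Transcripts of the IL-1 receptor pathway and of its downstream proteins were measured beside the factors. Il1r1, the signalling receptor, stood at 40.0 and 39.7 CPM in control and IL-1β stroma and at 5.13 and 4.56 CPM in the epithelium. None of the 11 pathway genes measured in stroma passed 2-fold, where 5.69% of all genes were higher and 13.1% lower. In the epithelium 2 of 11 were at least 2-fold higher, beside 7.99% of all genes. These were Il1rn, the receptor antagonist (0.718 to 1.86 CPM), and Irak3, an inhibitory kinase (0.564 to 1.25 CPM). Of 12 NF-κB genes, none passed 2-fold in the stroma, where 5.69% of all genes were higher and 13.1% lower (median −0.08 on the log2 scale, beside −0.32 for all genes). In the epithelium 5 were at least 2-fold higher with IL-1β, beside 7.99% of all genes, namely Nfkbie (2.72 to 13.9 CPM), Nfkbia (96.4 to 345 CPM), Tnfaip3 (8.92 to 26.5 CPM), Relb (18.8 to 53.8 CPM) and Nfkb2 (38.5 CPM with IL-1β, ratio 2.14), with a median of 0.73, beside 0.04 for all genes. Nfkbia encodes the inhibitor IκBα and Tnfaip3 the inhibitor A20. Of 11 JAK-STAT genes measured, only Socs1 passed 2-fold in the stroma (12.6 to 4.86 CPM), where 13.1% of all genes were lower. Only Pim1 did in the epithelium (31.1 to 67.9 CPM), where 7.99% of all genes were higher.

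The genes with the most similar pattern to each factor were sought over 21 groups (clusters split by library, at least 20 cells each). These groups share 2 libraries, and the correlations are a description. Csf1 was followed most closely by Fam114a1, Fkbp10, Lhfp, Serpinh1 and Pvt1 (Pearson r of 0.92 to 0.90 on log2 values). For Csf2 they included Bnipl, Tbc1d30, Bcl2a1d and Cd79b (0.94 to 0.90), and for Csf3 Slc2a1, Fndc3a, Lgi2, Gpr149 and Saa3 (0.93 to 0.89). Il34 was followed by Tor2a, Alas1, Galnt3, Piwil4 and Lrrc8c (0.93 to 0.90).

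Cells with more than 1 factor were counted at equal depth. In IL-1β stroma thinned to 4000 UMIs per cell, 38 of 475 cells had UMIs of both Csf1 and Csf3. These were 36.2% of the Csf1 cells and 21.5% of the Csf3 cells. The product of the separate shares of cells gave 39.1 cells. In the control stroma 20 of 782 cells had both, 10.6% of the Csf1 cells and 29.9% of the Csf3 cells, beside 16.2 from the product. In the epithelium Csf1 and Il34 were found together in 8 of 2583 IL-1β and 5 of 1299 control cells, and Csf2 and Il34 in 8 and 4. The products gave 11.2 and 2.46 cells for the first pair and 6.26 and 3.22 for the second.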

How the data were processed

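The authors deposited raw counts, that is, whole-number UMI counts per gene and cell, 1 matrix per library. Per the labels they used Cell Ranger and Scanpy 1.3.6, with the builds mm9 and GRCm38 both named, and coordinates here are GRCm38. The filter on cells asked for over 500 and under 7000 detected genes and over 2000 UMIs. Doublets were scored with the study's scrublet settings, which marked 3 of 5142 cells (0.0583%); the caller is regarded as not having worked, and only those 3 were removed. Counts were clustered with scanpy 1.11.5 (Leiden, resolution 1, 50 components, 15 neighbours, seed 0), first into epithelial and stromal cells and then within each, without the members and listed genes. Clusters were named from at least 3 markers; a marker counted where it was found in 20% of cells and a leading gene in 50%, and clusters holding at least 20% of the other kind's marker level were left unnamed, limits set after the clusters were seen. Cells are not replicates, so UMIs were summed per kind or cluster and library and given as CPM (per 1000000 UMIs) with exact Poisson, Clopper-Pearson and conditional binomial 95% intervals (scipy 1.17.1), which cover counting error only. A count of 0 was taken as 3 UMIs in ratios. Genes with at least 20 UMIs in both groups together were compared, and a difference was counted at 2-fold. Shares of cells were also given after thinning every cell to 4000 UMIs. The members and all lists were chosen with earlier results of these data known. Named genes were all members, all genes of the lists, and the 5 genes most correlated with each member on log2(CPM + 1); some genes that these rules name are not reported here. The ratio and its interval were tested on simulated counts with 200 changed genes. Alternatives were other filters, doublet cut-offs, cell assignments, scalings and clusterings.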

Additional observations from a re-analysis of the deposited data

Results flagged for a closer look

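Csf1 was lower with IL-1β in stromal cells (ratio 0.741) and higher in epithelial cells (ratio 2.53). These ratios are −0.43 and 1.34 on the log2 scale, beside medians of −0.32 and 0.04 for all genes. The stromal value was thus close to that of the middle stromal gene. Within the stroma, Csf1 stood at a ratio of 1.30 in the cluster led by Fmod and 0.824 in the other stromal cells outside the mixed cluster; the first value rests on 18 IL-1β cells and fell to 0.993 without the cell with the most Csf1 UMIs in each library. Csf2ra had a ratio of 0.639 in stromal and 1.21 in epithelial cells. On the log2 scale these are −0.65 and 0.28, beside medians of −0.32 and 0.04 for all genes. With 1 library per condition none of these differences was tested.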

How the results depend on the processing

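Of the alternatives tried, 112 ratios between the libraries moved by less than their counting interval and 7 by more, as did 79 and 17 class levels and 83 and 13 stromal shares; some alternatives were chosen after seeing the data (the cluster led by Fmod, the mixed clusters, the cells with endothelial markers and the cell with the most Csf1 UMIs). No paired analysis was possible because each condition had 1 library. The Csf1 ratio stayed between 0.668 and 0.886 in stromal and 2.33 and 3.25 in epithelial cells, and that of Csf3 between 5.54 and 8.02 and between 3.60 and 6.40. The Csf2 stromal ratio, on 5 and 1 UMIs, ran from 1.69 to 18.6. That range lies inside its wide interval of 0.782 to 330, so its alternatives count among the 112. The Csf1 stromal ratio was 0.886 as a mean over cells, 0.668 without the 1% of cells with the most UMIs of the factor and 0.836 without the Fmod cluster. The Csf3 stromal ratio was 8.02 and 5.54 under the last 2, its epithelial ratio 6.40 without the top cells, and the Csf1 epithelial ratio 3.25 with the kind of cell taken from each cell's own UMIs. Within the Fmod cluster the Csf1 ratio turned to 0.993 without the cell with the most Csf1 UMIs in each library. Of the listed genes past 2-fold, 24 stayed past it without the cell with the most UMIs of the gene in each library, also chosen after seeing the data, and Tslp in stroma did not.

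The stromal share of control Csf1 UMIs was 94.5% with all barcodes, 94% without the highest doublet scores, 94.1% at resolution 0.5 and with another seed, 94.5% with each cell's own UMIs, 94% without mixed clusters and 87.3% without the Fmod cluster. That of IL-1β Csf1 was 66.7% with all barcodes and 53.1% without the Fmod cluster. For Csf2 it was 6.67% (IL-1β, all barcodes), and 0% in the control without the highest doublet scores or the Fmod cluster; IL-1β Csf3 was 89.1% without that cluster.

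Class levels moved with the clustering. In DATP-like IL-1β cells Csf1 was 17.3, 16.3, 31.1 and 15.9 CPM and Csf2 8.58, 9.71, 7.01 and 7.93 CPM at resolution 2.0, with Louvain, with the listed genes kept and with separate clustering, and Il34 22.0 CPM with the last. In AT1-like control cells Csf1 was 12.6 and 11.7 CPM and Csf3 3.91 and 4.09 CPM with Louvain and with the listed genes kept, and Csf2 0 and Il34 10.6 CPM with separate clustering. AT2-lineage IL-1β Csf1 was 5.56 CPM with another seed and 5.81 CPM with separate clustering. The cause was not tested. Depth limits Csf2, which had only 1 and 5 stromal UMIs.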
